A study of Homo sapiens with 6 samples.

Results

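The genes described here are 10 kinases, adaptors and scaffolds of the Hippo pathway: STK3, STK4, SAV1, LATS1, LATS2, MOB1A, MOB1B, NF2, WWC1 and FRMD6. They were taken by name from the 17211 genes listed for CAOV2 cells, with symbols assigned by Ensembl identifier, and all 10 were present and tested. CAOV2 is an ovarian cancer line of human origin that the labels also call primary. Cells received 100 pmol of siRNA with 6 µL of Lipofectamine RNAiMAX for 2 days and were collected at day 3. In the siYAP group (3 libraries) the siRNA was a Dharmacon reagent that targets YAP, and in the siNT group (3 libraries) it was the AllStars Negative Control siRNA. Both groups thus carried a transfected siRNA, neither included untransfected cells, and the make of the reagent cannot be told apart from its target. The labels call the replicates biological but do not say whether they were separate cultures, so each p-value measures the spread between these libraries alone.

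Hippo signalling is a kinase relay that restrains the growth-promoting co-activators YAP and TAZ. The MST kinases, held by the scaffold SAV1, activate the LATS kinases together with MOB1 adaptors, and LATS then phosphorylates YAP and TAZ so that they are kept out of the nucleus or degraded. Scaffolds at the cell cortex, such as merlin (NF2) and KIBRA (WWC1), bring the kinases together. In several mammalian cell types YAP and its TEAD partners are known to raise LATS2 and NF2 transcription, which closes a negative feedback loop. The comparison asks how the transcripts of this relay differ between cells given the siRNA against YAP and control cells.

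Of the 10 genes, LATS1 had the largest fold change, falling to 56% of its siNT level, and WWC1 rose to 140% of its siNT level. MOB1A, FRMD6 and NF2 fell to 79.7%, 81.3% and 85.4% of control. These 3 falls were of ordinary size: 53.1%, 49.9% and 38.9% of all tested genes had a smaller absolute log2 fold change. For WWC1 that share was 69.6%. STK3, STK4, SAV1, LATS2 and MOB1B were not called, although with equal library totals in place of the authors' size factors LATS2, STK4, SAV1 and MOB1B were called higher. A gene was called where its Benjamini-Hochberg adjusted p from limma, over all 17200 genes tested, was under 0.05. By that rule 5 of the 10 were called, 1 higher and 4 lower, whereas 56.8% of all tested genes were called, 28.6% higher and 28.1% lower. The 3 siYAP libraries lay apart from the 3 siNT libraries for the same 5 genes, while 61.5% of all tested genes were separated in this way. The share of these genes that changed was thus near that of the transcriptome. The background was not matched for level, and each of the 10 genes had a mean above that of 57.75% or more of tested genes. Among the 15530 genes averaging 10 or more normalized counts, 4718 were called higher and 4790 lower. Of all called genes 50.4% were higher, and 62.1% with equal totals, a scaling that moved the median log2 fold change of all genes to 0.09, against 0.004. The median over the 10 genes was 0.01.

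**Figure D1:**
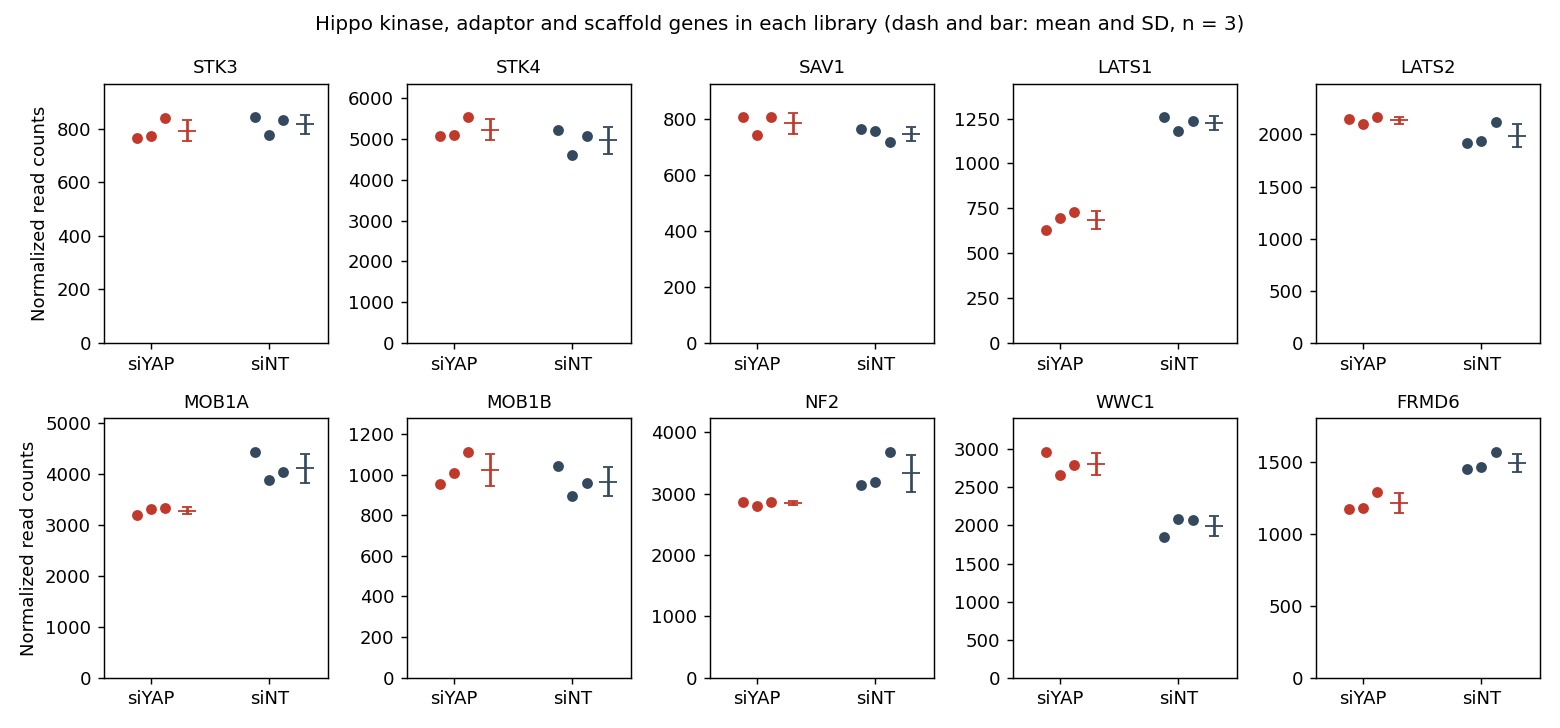
Normalized read counts (vertical axes, from 0) of the 10 genes in the 3 siYAP and 3 siNT libraries, one point a library, with the mean and SD beside the points. LATS1, MOB1A, NF2 and FRMD6 lie lower in every siYAP library than in any siNT library, WWC1 lies higher, and the other 5 genes overlap.

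Expression values are normalized read counts, that is, whole reads per gene scaled by the authors with 1 factor per library, as the values themselves show. Over the listed genes the libraries held between 25478595 and 31790340 reads. The targeted gene was checked first: YAP1 had 278.2, 326.7 and 293.9 normalized counts in the siYAP libraries and 6221, 5800.9 and 5955.1 in the siNT libraries. Of 6 epithelial markers all were measured, and their summed level was between 72574 and 79019 normalized counts in siYAP and between 96330 and 104749 in siNT. The keratins KRT7, KRT18 and KRT19 fell (log2 -0.97, -0.68 and -0.29), KRT8 was not called (log2 -0.09), and EPCAM and CDH1, the gene of E-cadherin, rose (log2 0.74 and 0.93). Of 8 ovarian carcinoma markers 5 were measured, with sums of 473 to 547 in siYAP and 928 to 957 in siNT. Most of that sum was MECOM, which fell (466.1 ± 33.2 in siYAP and 891.8 ± 26.5 in siNT, SD, n = 3 each), and the other 4 were not called, MSLN and MUC16 being positive (log2 1.19 and 0.23) and PAX8 and FOLR1 negative (log2 -0.65 and -0.26). PAX8, a transcription factor of the Müllerian lineage, had only 17.1 ± 4.26 normalized counts in siYAP and 28.8 ± 13.9 in siNT (SD, n = 3 each), and MUC16, the gene of CA-125, had 14.2 ± 4.28 in siYAP and 11.95 ± 3.67 in siNT (SD, n = 3 each). WT1, SOX17 and EMX2 were not analysed here. Of markers of other cell types, 3 of 5 immune genes summed to 63 to 71 in siYAP and 143 to 145 in siNT, with PTPRC and CD3E not analysed here. Of 5 fibroblast genes, 4 summed to 13062 to 13558 in siYAP and 4576 to 5319 in siNT, with COL3A1, LUM and PDGFRB higher, COL1A1 lower and DCN not analysed here. Of 4 endothelial genes ESAM was measured, at 1261 to 1338 in siYAP and 1673 to 1873 in siNT, and PECAM1, VWF and CDH5 were not analysed here. The part of these shifts in the changes below was not tested. In bulk RNA, fewer cells of a type and less RNA per cell cannot be told apart.

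LATS1 (ENSG00000131023, GRCh38 chromosome 6, 149658153 to 149718256, minus strand) encodes one of the kinases that phosphorylate YAP and TAZ. LATS1 had 631.6, 694.9 and 730.5 normalized counts in the siYAP libraries, against 1256.6, 1180.1 and 1236.2 in the siNT libraries. Every siYAP library was far below every siNT library, and the spread within a group was small beside the gap. The means were 685.6 ± 50.1 in siYAP and 1224 ± 39.6 in siNT (SD, n = 3 each). The log2 fold change was -0.84 with a standard error of 0.0622 and a 95% interval of -0.97 to -0.71 (limma, adjusted p = 1.43e-10), on the log2(value + 1) scale as for all fold changes here. Of all tested genes, 86.5% had a smaller absolute fold change. In reads, the gene was covered by 697, 704 and 768 in siYAP and by 1200, 1104 and 1023 in siNT.

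LATS2 (ENSG00000150457, chromosome 13, 20973032 to 21061547, minus strand) encodes the other LATS kinase. LATS2 had 2148.6, 2099.4 and 2162.9 normalized counts in siYAP, against 1913.1, 1934.7 and 2114.7 in siNT. The groups overlapped, since siNT replicate 3 lay above siYAP replicate 2. The log2 fold change was 0.11 with a standard error of 0.0503 and a 95% interval of 0.00 to 0.21, and it was not called (limma, adjusted p = 0.0783). LATS2 is the member nearest the threshold: with edgeR's quasi-likelihood test on recovered reads it was called higher (log2 0.12, adjusted p = 0.0432), as it was without siNT replicate 3 (log2 0.15, limma adjusted p = 0.0265), and over its 16 alternatives the adjusted p ran between 0.00197 and 0.217.

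The balance of the LATS paralogs was compared within libraries. LATS2 to LATS1, as a ratio of normalized counts within a library, was 3.402, 3.021 and 2.961 in siYAP and 1.522, 1.639 and 1.711 in siNT. No siYAP ratio came near an siNT ratio. The mean log2 ratio was 1.64 in siYAP and 0.70 in siNT, a difference of 0.94 with an exact two-sided permutation p of 0.1, the smallest that 3 against 3 libraries allow. It was also 0.1 after adjustment over the 3 paralog pairs compared. The difference follows from the fold changes of LATS2 (log2 0.11) and LATS1 (log2 -0.84) and is no further result. How often the ratios of other gene pairs separate the groups was not tested, while 61.5% of all tested genes do so singly. Per kilobase of exon, LATS1 made up 17.1 ± 1.05% of the pair in siYAP and 28.5 ± 1.2% in siNT (SD, n = 3 each). The pair together reached 462 ± 8.55 normalized counts per kilobase in siYAP and 498 ± 21.1 in siNT (SD, n = 3 each).

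**Figure D2:**
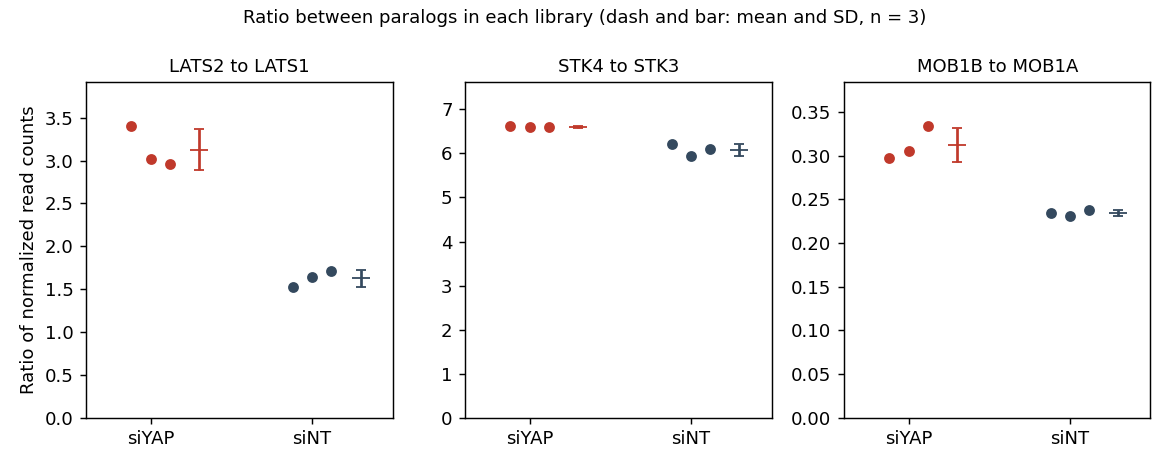
Ratio of normalized read counts between paralogs (vertical axes, from 0) in each siYAP and siNT library, with mean and SD. The LATS2 to LATS1 ratio averages 3.13 in siYAP and 1.62 in siNT; the other 2 pairs also separate the groups, by less.

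Since YAP acts through TEAD factors, the starts of these paralogs are shown with matches to the core TEAD motif in capitals. RefSeq promoters (GRCh38.p14, 250 bases before to 50 after a start, minus strand for both genes) were searched for GGAATG on both strands, which also covers CATTCC. Windows of 9 of the 10 genes were searched, STK3 not being included, and among these 9 only LATS2 had a match, which begins 9 bases after its annotated start. LATS1 has a further annotated start, whose window held no match either. Of all 35116 promoter windows of this length, 14.0% hold the motif, and of the 16906 windows of genes tested here 11.6% do. A match is a stretch of letters and not a measured binding site, and its absence from a window says nothing of TEAD binding elsewhere.
LATS1, chr6:149718052-149718351: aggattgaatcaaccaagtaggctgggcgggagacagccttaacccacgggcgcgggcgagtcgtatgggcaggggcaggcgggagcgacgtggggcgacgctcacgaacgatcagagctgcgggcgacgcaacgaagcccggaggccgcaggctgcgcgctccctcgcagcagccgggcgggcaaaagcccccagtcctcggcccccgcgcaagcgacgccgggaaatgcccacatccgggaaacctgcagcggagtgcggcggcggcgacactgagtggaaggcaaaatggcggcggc
LATS2, chr13:21061537-21061836: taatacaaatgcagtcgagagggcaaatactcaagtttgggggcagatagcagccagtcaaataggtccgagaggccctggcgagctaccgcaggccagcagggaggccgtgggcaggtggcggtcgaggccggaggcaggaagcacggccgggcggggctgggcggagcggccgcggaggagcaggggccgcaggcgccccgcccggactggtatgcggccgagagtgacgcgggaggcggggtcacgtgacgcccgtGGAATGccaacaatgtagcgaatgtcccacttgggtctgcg

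MOB1A and MOB1B encode near-identical adaptors that bind and activate the LATS and NDR kinases. MOB1A (ENSG00000114978, chromosome 2, 74152528 to 74178898, minus strand) had 3191.6, 3300.6 and 3324.2 normalized counts in siYAP, against 4419.9, 3869.4 and 4024 in siNT. All siYAP libraries were lower, and siNT replicate 1 stood highest. The log2 fold change was -0.32 with a standard error of 0.0499 and a 95% interval of -0.43 to -0.22 (limma, adjusted p = 8.23e-06). MOB1B (ENSG00000173542, chromosome 4, 70902326 to 71022449, plus strand) had 952.4, 1005.8 and 1110 normalized counts in siYAP, against 1039.8, 894.7 and 959.5 in siNT. These groups overlapped, and the log2 fold change of 0.08 (95% interval -0.05 to 0.22) was not called (limma, adjusted p = 0.296).

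The MOB1B to MOB1A ratio was 0.298, 0.305 and 0.334 in siYAP and 0.235, 0.231 and 0.238 in siNT, again without overlap. The log2 ratio differed by 0.41 between the groups (exact two-sided permutation p = 0.1, also adjusted over the 3 pairs). Per kilobase, MOB1B was 18.6 ± 0.913% of the pair in siYAP and 14.7 ± 0.193% in siNT (SD, n = 3 each). Although the proteins are alike, the annotated transcripts of the genes share 0 stretches of 50 bases. MOB1B does overlap DCK, the deoxycytidine kinase gene, in exons on the same strand. DCK fell, with 434.1 normalized counts in siYAP and 711.6 in siNT (log2 -0.70, limma adjusted p = 5.21e-07), and the part of DCK reads in the MOB1B value was not tested.

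STK4 (MST1) and STK3 (MST2) are the upstream kinases of the relay. STK4 (ENSG00000101109, chromosome 20, 44966474 to 45079959, plus strand) had 5076.5, 5088.1 and 5526.1 normalized counts in siYAP, against 5226.2, 4602.7 and 5072.9 in siNT. Its log2 fold change was 0.08 with a 95% interval of -0.03 to 0.18 (limma, adjusted p = 0.217). It was called higher only without siNT replicate 1 (log2 0.11, limma adjusted p = 0.0371) and with equal library totals (log2 0.16, limma adjusted p = 0.00944). STK3 (ENSG00000104375, chromosome 8, 98371228 to 98942827, minus strand) had 766.6, 771.9 and 838 normalized counts in siYAP, against 841.9, 776 and 831.4 in siNT. Its log2 fold change was -0.04 with a 95% interval of -0.17 to 0.08 (limma, adjusted p = 0.574). In both genes the libraries of the groups were interleaved.

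The STK4 to STK3 ratio was nonetheless tight within groups, at 6.622, 6.592 and 6.595 in siYAP and 6.208, 5.931 and 6.102 in siNT. All siYAP ratios were higher, by 0.12 on the log2 scale (exact two-sided permutation p = 0.1, also adjusted over the 3 pairs). The size factor of a library cancels in such a ratio. SAV1, the scaffold that binds MST kinases through its SARAH domain (ENSG00000151748, chromosome 14, 50632058 to 50668331, minus strand), had 806.5, 742.2 and 806.6 normalized counts in siYAP, against 766.5, 758.9 and 719 in siNT. The groups overlapped through siYAP replicate 2, and the log2 fold change of 0.07 (95% interval -0.06 to 0.20) was not called (limma, adjusted p = 0.359). SAV1 overlaps ATL1 on the other strand in its exons, a gene with 80.9 normalized counts in siYAP and 26.9 in siNT, and 4.51% of the 50-base stretches of SAV1 transcripts recur in another gene, a processed pseudogene not analysed here.

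Across the 5 genes that were not called, the 95% intervals together ran between -0.17 and 0.22 on the log2 scale. With equal totals the fold changes were 0.19 for LATS2, 0.16 for STK4, 0.16 for SAV1, 0.17 for MOB1B and 0.04 for STK3.

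NF2 encodes merlin, a FERM-domain tumour suppressor that recruits LATS kinases to the plasma membrane. NF2 (ENSG00000186575, chromosome 22, 29603556 to 29698598, plus strand) had 2869, 2805.1 and 2861.9 normalized counts in siYAP, against 3133, 3186.4 and 3674.8 in siNT. The siYAP libraries were lower throughout, and siNT replicate 3 stood above the other siNT libraries. The log2 fold change was -0.22 with a standard error of 0.0540 and a 95% interval of -0.34 to -0.11 (limma, adjusted p = 0.00122). Without siNT replicate 3 it was -0.15 (limma, adjusted p = 0.0209), and the call was lost in limma without a variance trend (adjusted p = 0.0518), the largest adjusted p of its 16 alternatives, whose smallest was 1.76e-05.

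FRMD6 encodes willin, a FERM-domain protein related to Expanded of Drosophila. FRMD6 (ENSG00000139926, chromosome 14, 51489100 to 51730727, plus strand) had 1169.9, 1177.5 and 1291.6 normalized counts in siYAP, against 1452.4, 1460.1 and 1566.1 in siNT. The highest siYAP library lay below the lowest siNT library. The log2 fold change was -0.30 with a standard error of 0.0558 and a 95% interval of -0.42 to -0.18 (limma, adjusted p = 8.57e-05).

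WWC1 encodes KIBRA, a WW-domain scaffold that binds merlin and LATS kinases. WWC1 (ENSG00000113645, chromosome 5, 168291651 to 168472303, plus strand) had 2962.4, 2667.9 and 2792.5 normalized counts in siYAP, against 1847.1, 2083.3 and 2065.2 in siNT. Every siYAP library lay above every siNT library, the opposite of NF2 and FRMD6. The means were 2808 ± 148 in siYAP and 1999 ± 131 in siNT (SD, n = 3 each), and the log2 fold change was 0.49 with a standard error of 0.0545 and a 95% interval of 0.38 to 0.60 (limma, adjusted p = 8.59e-08). The other WWC genes, picked out after their values were seen, also rose: WWC2 averaged 5990 ± 182 normalized counts in siYAP and 4477 ± 85.9 in siNT (SD, n = 3 each; log2 0.42, limma adjusted p = 2.64e-08). WWC3 averaged 2293 ± 86.6 in siYAP and 1471 ± 86.6 in siNT (SD, n = 3 each; log2 0.64, limma adjusted p = 9.18e-10).

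**Figure D3:**
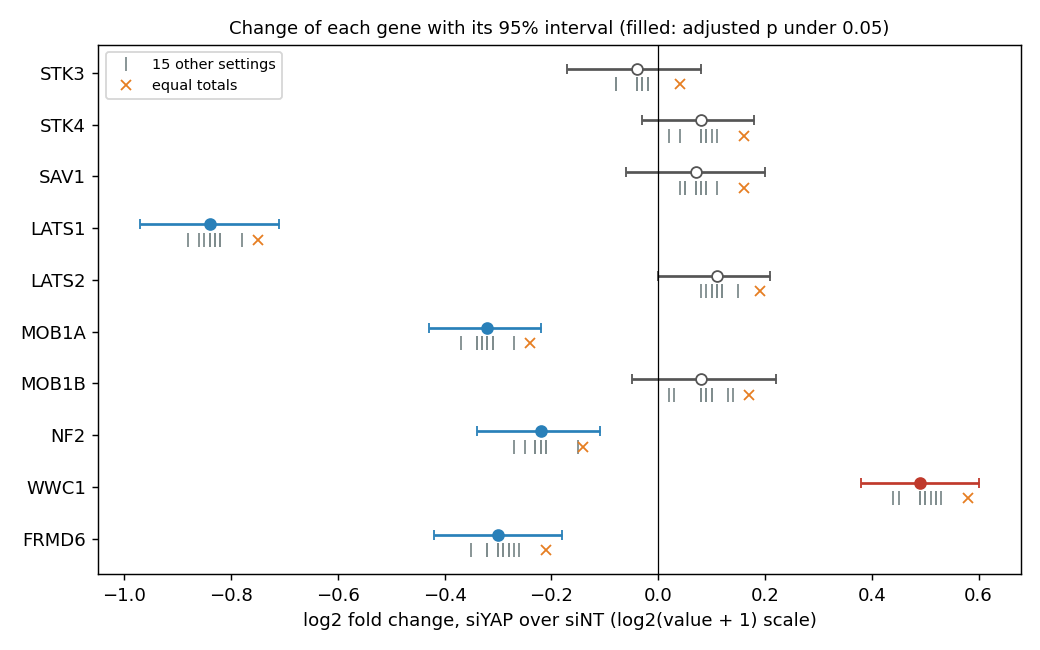
Log2 fold change of each gene, siYAP over siNT (horizontal axis), with its 95% interval from limma; filled points were called. Ticks beneath each point are the other settings and crosses the values with equal library totals. LATS1, at -0.84, and WWC1, at 0.49, lie farthest from 0. They lie apart from 0 in every setting, as do MOB1A, FRMD6 and NF2.

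Levels between genes were compared per kilobase of annotated exon (GENCODE 29, union of all exons), since longer transcripts collect more reads. In siYAP the order was STK4 (576 ± 28.2 normalized counts per kilobase), MOB1A (508 ± 11), NF2 (397 ± 4.89), LATS2 (383 ± 5.97) and WWC1 (279 ± 14.7), followed by SAV1, FRMD6, MOB1B, LATS1 and STK3 (SD, n = 3). In siNT it was MOB1A (637 ± 44.1), STK4 (547 ± 35.8), NF2 (465 ± 41.6), LATS2 (356 ± 19.8) and WWC1 (198 ± 13.0), followed by FRMD6, LATS1, SAV1, MOB1B and STK3 (SD, n = 3). Neighbours in this order were separated by their ranges over libraries except as follows. In siNT, STK4 (507 to 576) and NF2 (437 to 513) overlapped. The ranges of SAV1 (132 to 143) and FRMD6 (124 to 137) overlapped in siYAP, as did those of FRMD6 and MOB1B (108 to 126). LATS1 stood at 79.3 ± 5.79 in siYAP, ninth of the genes, and at 142 ± 4.58 in siNT, where it ranked 7 (SD, n = 3 each). In siNT the LATS1 range of 137 to 145 lay just above the SAV1 range of 128 to 136. By this measure STK3 was the lowest in both groups, at 62.9 ± 3.16 in siYAP and 64.8 ± 2.81 in siNT (SD, n = 3 each). That place depends on the divisor, since its exon union of 12597 bases was the longest of the 10. Before the division, STK3 averaged 792.1 normalized counts in siYAP and 816.4 in siNT. SAV1 was lower in both groups (785.1 in siYAP and 748.1 in siNT), and LATS1 was lower in siYAP (685.6).

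**Figure D4:**
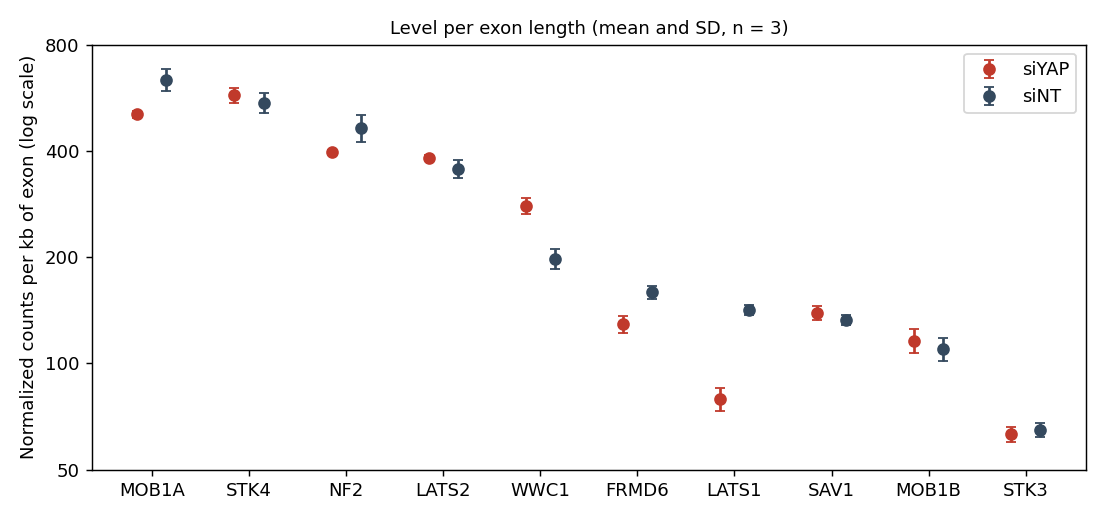
Mean level per kilobase of exon (vertical log axis) with SD in siYAP and siNT, genes ordered by the siNT level. LATS1, at 79.3 in siYAP and 142 in siNT, lies below MOB1B in siYAP alone. STK3, at 62.9 in siYAP and 64.8 in siNT, is lowest in both groups by this measure, which divides by all annotated exons.

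The rest of the pathway was described by role, over 91 other genes in 7 lists. Of these, 37 were higher, 26 lower and 28 not called (with equal totals, 49 higher and 22 lower). Thus 69.2% of the 91 were called, beside 56.8% of all tested genes, and their median log2 fold change was 0.06, beside 0.00. These shares were not matched for expression level. By list, the share called ran between 40% (RASSF proteins) and 83.3% (proteins that restrain LATS, SAV1, MOB1 or merlin). Other Ste20-type kinases that can act on LATS or MST had 5 of 12 higher, 3 lower and 4 not called (median log2 0.09). MINK1 rose (7310 ± 56.6 normalized counts in siYAP and 4466 ± 89.6 in siNT, log2 0.71) and so did MAP4K3 (log2 0.62), while MAP4K5 fell (850.4 ± 34.9 in siYAP and 1465 ± 82.0 in siNT, log2 -0.78), as did the low MAP4K1 (14.4 ± 3.64 in siYAP and 38.4 ± 9.84 in siNT; SD, n = 3 for each). Their limma adjusted p-values lay between 2.64e-12 and 0.000146.

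MOB1 also serves the NDR kinases, the closest relatives of LATS. Of 6 NDR and other MOB genes, 3 were higher, 1 lower and 2 not called (median log2 0.25). Thus 66.7% were called, beside 56.8% of all tested genes. The NDR kinases split: STK38L rose (log2 0.44) and STK38 fell (log2 -0.40). MOB3B, at 737.1 ± 38.0 normalized counts in siYAP and 403.3 ± 18.2 in siNT (SD, n = 3 each), and MOB3C (log2 0.69) rose. RASSF proteins bind MST kinases through SARAH domains. Of the 5 RASSF genes measured, RASSF4 rose (416.1 ± 28.7 in siYAP and 167 ± 15.3 in siNT, SD, n = 3 each; log2 1.31), RASSF6 fell (log2 -0.37) and 3 were not called. The share called was 40%.

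The STRIPAK complex, a striatin-bound form of the phosphatase PP2A, removes the activating phosphate of MST kinases. Of its 15 genes 6 were higher, 3 lower and 6 not called (median log2 0.06), so that 60% were called, near the 56.8% of all tested genes. The regulatory subunits STRN3 (log2 0.50) and STRN (log2 0.33) rose with PDCD10 (log2 0.40) and SIKE1 (log2 0.38). The further striatin STRN4 was not called (log2 0.07), and SLMAP, STRIP2 and FGFR1OP2 fell (log2 -0.24, -0.29 and -0.21). The catalytic and scaffold subunits of PP2A, PPP2CA, PPP2CB, PPP2R1A and PPP2R1B, were not called, with log2 fold changes of 0.02, 0.01, 0.04 and 0.06. Among 12 proteins that restrain LATS, SAV1, MOB1 or merlin, 7 were higher, 3 lower and 2 not called (median log2 0.24). Thus 83.3% of them were called. WWP1, a ubiquitin ligase that targets LATS1, averaged 3063 ± 180 normalized counts in siYAP and 1364 ± 62.1 in siNT (SD, n = 3 each; log2 1.17). PJA2, a ligase that targets MOB1, rose (log2 0.66), as did NEDD4 (log2 0.58), and the kinase NUAK1 fell (log2 -0.50).

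Of 23 measured junction, polarity and ERM-type scaffolds, 12 were higher, 5 lower and 6 not called (median log2 0.30). Thus 73.9% were called, beside 56.8% of all tested genes (28.6% higher and 28.1% lower). The ERM proteins are relatives of merlin. Radixin, RDX, rose (7868 ± 391 normalized counts in siYAP and 4560 ± 276 in siNT), whereas ezrin, EZR, fell (8351 ± 238 in siYAP and 12495 ± 148 in siNT; SD, n = 3 for each). The polarity scaffold PATJ rose (log2 1.21) and AMOTL2, an angiomotin that binds YAP and LATS, fell (log2 -0.89). Downstream of LATS, 3 of 18 genes were higher, 10 lower and 5 not called (median log2 -0.15), so that 72.2% were called. Beside the targeted YAP1, those that fell include WWTR1, the gene of TAZ (log2 -0.83), and the DNA-binding partner TEAD2 (log2 -1.52). YWHAQ, a 14-3-3 protein of the class that holds phosphorylated YAP in the cytoplasm, fell as well (log2 -1.50). The other TEAD genes moved less: TEAD4 and TEAD1 fell (log2 -0.37 and -0.12) and TEAD3 was not called (log2 -0.13). Of the other 14-3-3 genes, SFN, YWHAE and YWHAZ fell (log2 -0.57, -0.54 and -0.16). YWHAH rose (log2 0.17), and YWHAG and YWHAB were not called (log2 0.05 and -0.03).

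**Figure D5:**
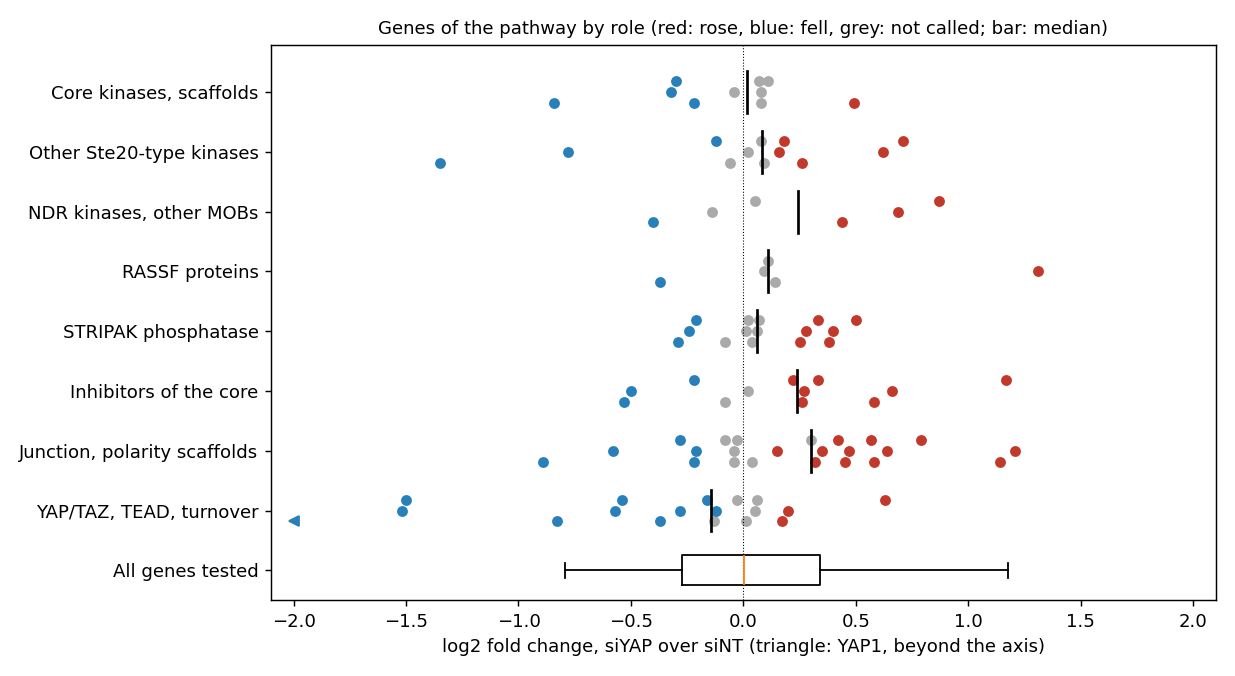
Log2 fold change, siYAP over siNT (horizontal axis), of each measured gene by role in the pathway (red rose, blue fell, grey not called; the triangle is YAP1, beyond the axis), with a bar at each list's median and, at the bottom, a box plot of all genes tested (box: quartiles, whiskers: percentiles 5 and 95). The kinases and scaffolds described here have a median of 0.01; the junction and polarity scaffolds, at 0.30, have the highest median of the 7 other lists.

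The 3′ untranslated regions (UTRs) were searched for heptamers that went with lower fold changes across the transcriptome, with 1 annotated 3′ UTR per gene. Fold change, limited to an absolute log2 value of 2, was regressed on the presence of each heptamer over 11364 genes. Each gene averaged 50 or more normalized counts. The model also held base content and linear and squared terms of log UTR length and log expression. Heptamers present in fewer than 50 genes were left out. The 3 heptamers with the lowest coefficient relative to its standard error, and not overlapping in sequence by 5 bases, were TTCTTAA (coefficient -0.151 on the log2 scale), GAGAGGA (-0.095) and GATAAAG (-0.102). At least 1 of them was present in 39.2% of these genes, whose median log2 fold change was -0.02, beside 0.00 in the others. LATS1, MOB1A, NF2 and FRMD6 each held at least 1. So did STK4 and MOB1B, which were not called, and WWC1, which rose, whereas LATS2, STK3 and SAV1 held none. Those without a heptamer had the shortest 3′ UTRs, of 1838, 1209 and 1547 bases, against 2698 to 6111 bases in the others. Holding a heptamer thus followed UTR length among these genes. The heptamers were chosen on the fold changes of these same libraries, so the count of genes holding one is a description and supports no link. The part of the heptamers in any change was not tested. LATS1 has 1 TTCTTAA, 1237 bases into a 3′ UTR of 3576 bases, and MOB1A has 1 TTCTTAA and 2 GATAAAG in 4040 bases. FRMD6 has 1 GAGAGGA and 1 GATAAAG in 2698 bases. The matches below, 1 per gene, have the heptamer in capitals and are written 5′ to 3′ on the transcript (GENCODE 29, GRCh38). They are shown for the 4 genes that fell and, for contrast, for WWC1.
LATS1, chr6:149660475-149660503, minus strand: tttatttccttTTCTTAAgctccactgat
MOB1A, chr2:74154939-74154967, minus strand: tttcctagaaaTTCTTAAatatatacaga
NF2, chr22:29697447-29697475, plus strand: tggagaaggtgGAGAGGAggatgggcctc
FRMD6, chr14:51730138-51730166, plus strand: taagaaagaaaGATAAAGaaaaaacatat
WWC1, chr5:168469327-168469355, plus strand: agttgctgctcTTCTTAAaatcgtttaga

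Apart from these matches the genes share little in position. They lie on 9 chromosomes, with only SAV1 and FRMD6 on the same one, and those moved differently, at log2 0.07 and -0.30. None of the 5 genes that changed overlaps another listed gene in the annotation, and at most 1.90% of their 50-base transcript stretches recur in another gene.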

How the data were processed

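Poly(A) libraries were made with a stranded TruSeq kit, per the labels' protocols. The deposited signal is 1 value per gene and library, normalized read counts. FastQC, HISAT2, HTSeq and DESeq2, and the builds hg19 and mm9, are named per the submitters' processing notes. Tool versions, what each build was used for, annotation, strand setting and gene filter were not given in the sources used here. In each library 100% of values are whole multiples of the smallest positive value, to 0.01 of a read, so reads were recovered. Values were tested as log2(value + 1) with limma 3.58.1 (trend, robust) in R 4.3.3 for genes with at least 1 in 3 or more libraries, with group alone in the model. Alternatives were edgeR 4.0.16 and DESeq2 1.42.0 on recovered reads, other scalings, filters and pseudocount, the replicate block and each library left out. The limma step was also run on simulated counts in which far fewer genes changed than were called here, so that run does not bear on the calls reported. Annotation came from GENCODE 29 and RefSeq (GRCh38), matched by identifier or symbol. Genes were named by rule, that is, the 10 genes, YAP1, WWTR1 and up to 4 called genes of smallest p per list. Outside that rule, WWC2, WWC3, SLMAP, STRIP2, FGFR1OP2, STRN4, the PP2A subunits, cell type markers and overlapping genes were added after their values were seen. So were SFN and the TEAD and YWHA genes other than TEAD2 and YWHAQ. The members, lists and tests were chosen with earlier results of these data known. MAP4K6 is an older name of MINK1 and was counted under it.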

Additional observations from a re-analysis of the deposited data

How the results depend on the processing

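Of 160 refitted fold changes (10 genes under 16 alternatives), 150 kept direction and call, 8 gained a call, 1 lost it and 1 changed sign. LATS1, MOB1A, FRMD6 and WWC1 kept their calls in all 16, at -0.88 to -0.75, -0.37 to -0.24, -0.35 to -0.21 and 0.44 to 0.58. The count of the 10 genes called higher was 1, but 2 with upper-quartile factors, 2 with edgeR, 5 with equal totals, and 1 to 2 with a library left out. The count called lower was 4 in all but limma without trend (3), where NF2 had an adjusted p of 0.0518. With equal totals LATS2, STK4, SAV1 and MOB1B joined WWC1, and STK3 changed sign to 0.04; that scaling gave a median of all genes of 0.09 and called 6050 genes higher and 3700 lower, against 4926 and 4841. EdgeR called 4916 genes higher and 4655 lower of 15659, and DESeq2 4393 and 4385. The causes were not tested. The 8 gained calls also include LATS2 without siNT replicate 3 and STK4 without siNT replicate 1. Leaving out a library moved the LATS2 to LATS1 difference between 0.88 and 0.98. With the replicate block, 4654 genes were higher and 4487 lower, and of the 10 genes 1 and 4. Same-numbered libraries did not deviate together (correlations of -0.338, -0.00827 and -0.0685 over 12519 genes), so the numbers were not taken to pair them. Between differently numbered libraries the correlations ran from -0.269 (siYAP replicate 3, siNT replicate 2) to 0.317 (siYAP replicate 3, siNT replicate 1). The source of these was not tested. Each of the 10 genes had 595 to 5810 reads a library, and the number of libraries, 3 a group, limits the precision.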
